A study of Oreolalax rhodostigmatus with 13 samples.

Results

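The comparison described here is between tadpoles of *Oreolalax rhodostigmatus* kept for 30 h in light and tadpoles kept for 4 h in light. It uses 9 of the 13 RNA-seq libraries of the series: 3 of the long-term exposed group (30 h) and 6 of the short-term exposed group (4 h). The other 4 libraries are the control group, killed at once when taken from the dark zone of the cave, and they are given as the reference level. Each library is 1 wild-caught tadpole at Gosner stage 25. Its tissues were pooled before extraction. The labels give skin, eyeball and liver, and the study's methods add part of the tail. The exposed tadpoles were held in a cage at the lit cave entrance, with a lamp in the evening and night. Both exposed groups shared the cage. The tadpoles were caught in the early morning, so 4 h of light would have ended before the lamp was used. The comparison concerns the time between the groups. Length and source of light, time of day and time in captivity cannot be told apart in it. In pooled tissue, fewer cells of a type and less RNA per cell cannot be told apart either.

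Cave-dwelling tadpoles of this toad are transparent and darken when they reach light. Slow, morphological darkening rests on melanin made in melanocytes, where tyrosinase starts melanin synthesis, tyrosinase-related protein 1 and dopachrome tautomerase act on later intermediates, and PMEL builds the scaffold inside the melanosome that melanin coats. Yellow and red pigment cells use pteridines, made from GTP through GTP cyclohydrolase and sepiapterin reductase, and carotenoids, which carotene oxygenases cleave. The liver makes most plasma proteins, and its mass in the pooled sample therefore bears on genes such as albumin.

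Expression was deposited as FPKM (fragments scaled to transcript length and library size) for 249088 unigenes, the gene-like clusters of an assembly made without a genome. A unigene therefore has no chromosome position, and its name is the best protein hit in another species. Summed FPKM ranged from 983190 to 1070969 per library. Read totals are not part of the values used here, but the steps of the lowest FPKM values put the depth of the short-term libraries at 0.933 to 1.149 times that of control replicate 1, and that of the long-term libraries at 1.338, 1.000 and 1.102 times. Unigenes above 0 numbered 91929 to 136138 per short-term library, with the lowest number in replicate 5, and 140196 to 147363 per long-term library. Pearson correlations of log2 values were 0.902 to 0.906 on average among the long-term libraries, 0.842 to 0.871 among the short-term libraries, and 0.772 to 0.824 from a short-term library to the long-term group. Short-term replicates 1, 2, 5 and 6 correlated more strongly with the control libraries (0.853 to 0.890) than with their own group.

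Of all unigenes, 18127 were at 0 in every library and 38864 (15.6%) were above 0 in all 13. These 38864 were tested. A unigene silent in 1 group cannot enter such a test. Outside it, 2123 unigenes were listed above 0 in all 3 long-term libraries and at 0 in all 6 short-term libraries, 0.852% of the table, with a median long-term mean of 0.507 FPKM. Of these, 691 were also at 0 in all 4 control libraries. In the opposite direction 293 unigenes, 0.118% of the table, were listed above 0 in all short-term and at 0 in all long-term libraries, of which 7 were at 0 in every control library. A value listed as 0 can be an unsampled transcript, and the long-term libraries list more unigenes above 0 than any short-term library.

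Long-term replicates 2 and 3 stood apart from long-term replicate 1 in 1 respect. They shared 1847 unigenes listed above 0 in these 2 libraries and in no other, where the next pair of libraries, long-term replicates 1 and 3, shared 608. Of the 1847, 255 had a name held here, and 12 of these names were best hits in amphibians and 239 in other organisms. Names were held for 1595 of the 249088 unigenes, in part from lists the study chose on expression in this series. The 48 unigenes named here as ribosomal proteins, the parts of the ribosome, therefore do not stand for the ribosomal genes of the toad. Of these 48, 46 and 45 were above 0 in long-term replicates 2 and 3, and at most 5 in any other library. Their summed FPKM was 430.4 and 399.8 in long-term replicates 2 and 3, 1.88 in long-term replicate 1, 0.00 to 25.7 in the short-term and 0.00 to 28.3 in the control libraries. Unigenes with plastid names, such as photosystem proteins, summed to 3.71 and 3.64 FPKM in long-term replicates 2 and 3, to 0.00 in long-term replicate 1 and to at most 0.56 in any short-term library. None of the 48 ribosomal and 8 plastid unigenes was above 0 in all 13 libraries, so none entered the test. Names of receptor kinases and of their MAPK and PI3K signalling split the libraries in another way. Of 229 such unigenes, 33 were above 0 in short-term replicate 1, against 181 to 210 in short-term replicates 2 to 6 and 213 to 226 in the long-term libraries. The control libraries had 91, 30, 29 and 32, so short-term replicate 1 was at the level of control replicates 2 to 4. Of these 229 unigenes 14 entered the test. Counts without short-term replicate 1 and long-term replicate 1 are given below. The part of these library differences in the tested values was not tested.

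Between 4 h and 30 h of light, 1658 unigenes rose (4.27% of those tested) and 2009 fell (5.17%), by limma on log2(FPKM + 0.1) with a Benjamini-Hochberg adjusted p under 0.05. Together they were 9.44% of the unigenes tested. The median difference of the unigenes that rose was 2.03 on the log2 scale, and 10% of them were above 3.12. Among those that fell the median was -1.74, and 10% were below -2.84. More than a 4-fold difference was fitted for 870 of the unigenes that rose and for 706 of those that fell. Over all unigenes tested the median difference was 0.07. At an unadjusted p under 0.05 the counts were 5153 higher and 4894 lower. The counts depended on the number of long-term libraries. Without long-term replicate 1 they were 623 higher and 739 lower, without replicate 2 they were 441 and 925, and without replicate 3 they were 454 and 682. They also depended on short-term replicate 5, the library with the fewest unigenes above 0. Without it the counts were 1671 higher and 2623 lower, and the median difference was -0.05. Another 5684 unigenes were at 0 in this library only and so were not tested. With both short-term replicate 1 and long-term replicate 1 left out, 622 rose and 928 fell, of which 582 and 852 were among the 1658 and 2009. No unigene called in either direction was called in the other under any of these settings.

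**Figure D1:**
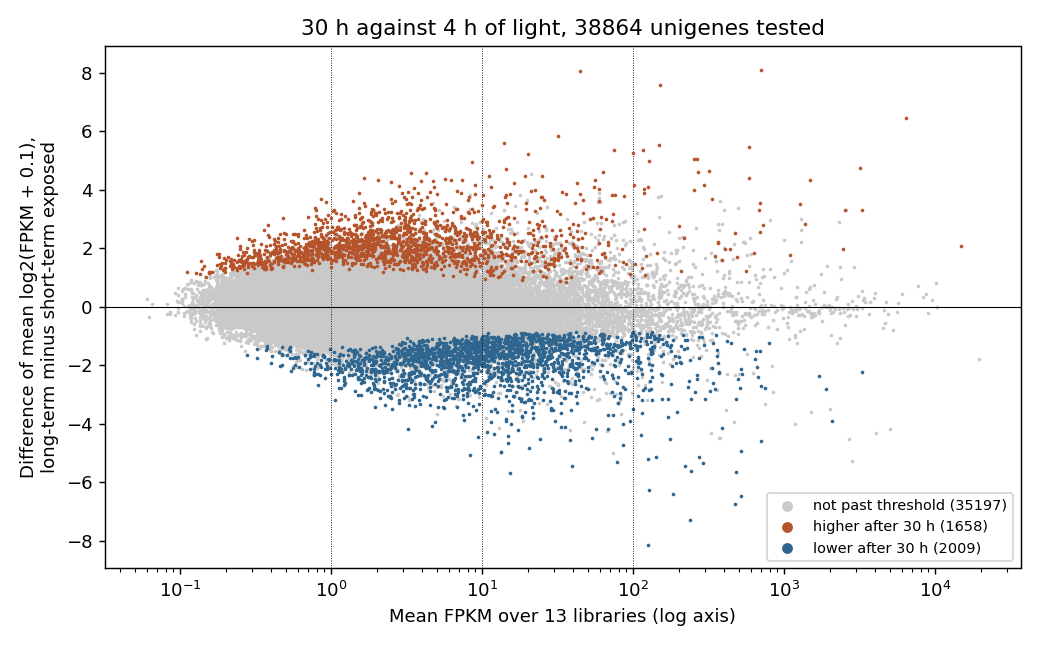
Difference of mean log2(FPKM + 0.1) between long-term and short-term exposed libraries (vertical axis) against mean FPKM over the 13 libraries (log horizontal axis), 1 point per unigene tested. Colours mark the 1658 unigenes that rose, the 2009 that fell and the rest, and dotted lines the limits of the abundance classes at 1, 10 and 100 FPKM. Calls below 1 FPKM lie mostly above the zero line and calls above 10 FPKM mostly below it.

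The values of the exposed libraries were fully separated for many unigenes. For 3183 unigenes (8.19%) the lowest of the 3 long-term values lay above the highest of the 6 short-term values, and for 2985 (7.68%) the highest long-term value lay below the lowest short-term value. Of the 1658 unigenes that rose, 1511 were separated in this way, and so were 1804 of the 2009 that fell. On the log2 scale the mean of the control libraries lay between the means of the exposed groups for 89.0% of the unigenes that rose and for 76.2% of those that fell. It lay above both for 425 of those that fell (21.2%), and below both for 165 of those that rose (9.95%). These shares describe unigenes chosen for a difference between the exposed groups.

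Direction went with abundance class, taken from the mean FPKM over all 13 libraries. The classes are therefore not matched on the level after 4 h. Under 1 FPKM the median short-term mean was 0.248 FPKM for unigenes that rose and 0.951 for those that fell. A unigene at 0 in any library could not enter, and the pseudocount shrinks differences near 0. How far these choices shape the counts by class was not tested. Among 9516 unigenes with a mean under 1 FPKM, 422 rose (4.43%) and 70 fell (0.736%). The class of 1 to 10 FPKM held 21832 unigenes, of which 911 rose (4.17%) and 876 fell (4.01%). In the class of 10 to 100 FPKM, 274 of 6524 rose (4.20%) and 910 fell (13.9%). At 100 FPKM or more, 51 of 992 rose (5.14%) and 153 fell (15.4%). The share that rose was thus 4.17% to 5.14% in every class, while the share that fell was 15.4% in the most abundant class against 0.736% in the least abundant. Falls were 14.2% of the calls under 1 FPKM, 76.9% of those from 10 to 100 FPKM and 75.0% of those at 100 FPKM or more. The median difference over all unigenes of a class was 0.23, 0.11, -0.28 and -0.21 from the least to the most abundant class. FPKM is a share of a nearly fixed total per library, and the unigenes that rose took a larger share after 30 h, as given below. The part of this in the medians and in the falls was not tested. With median-of-ratios scaling 323 rose and 1142 fell from 10 to 100 FPKM, and 46 rose and 129 fell at 100 FPKM or more. Under 1 FPKM the counts were 283 rises and 78 falls with a pseudocount of 0.01, and 2295 rises and 80 falls with no filter on low values. With both first exposed replicates left out, 160 rose and 26 fell under 1 FPKM, 111 rose and 461 fell from 10 to 100 FPKM, and 19 rose and 75 fell at 100 FPKM or more. Leaving out long-term replicate 1, 2 or 3 gave 176, 92 and 97 rises and 20, 16 and 13 falls under 1 FPKM, and 17, 22 and 20 rises and 64, 78 and 72 falls at 100 FPKM or more. In the class of 1 to 10 FPKM the same fits gave 317, 240 and 237 rises and 297, 364 and 255 falls, and from 10 to 100 FPKM 113, 87 and 100 rises and 358, 467 and 342 falls. Falls under 1 FPKM numbered 107 without short-term replicate 1 and 152 without short-term replicate 5. Rises outnumbered falls under 1 FPKM and falls outnumbered rises at 10 FPKM or more in each of these fits.

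**Figure D2:**
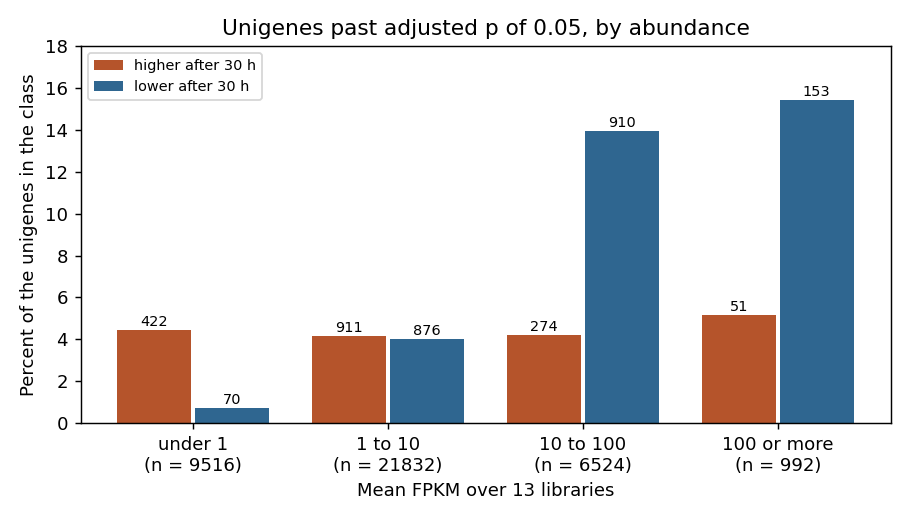
Percent of the unigenes tested in each class of mean FPKM (horizontal axis, with the number tested) that rose or fell after 30 h against 4 h of light at an adjusted p under 0.05, with the number of unigenes above each bar. The bars for rises stay between 4.17% and 5.14%, and those for falls go from 0.736% under 1 FPKM to 15.4% at 100 FPKM or more.

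The unigenes that rose were few but took a large part of the expression measured in the long-term libraries. Their FPKM summed to 21.0%, 12.8% and 12.8% of the total in long-term replicates 1, 2 and 3, against 2.03% to 3.92% in the short-term and 2.85% to 5.99% in the control libraries. Most of this came from the 51 members at 100 FPKM or more, which held 18.6%, 10.3% and 10.6% of the long-term totals. All unigenes that rose summed to 217195, 132867 and 133722 FPKM in these libraries. Cluster-29057.124223 alone had 56678, 10165 and 12239 of this, and Cluster-29057.100989 21973, 29981 and 32797, so the shares lean on few unigenes. The second had 5818 to 24065 FPKM in controls, overlapping the long-term values, and an adjusted p of 0.0449 (limma). The unigenes that fell held 2.15% to 2.37% of the long-term totals, 6.85% to 10.7% of the short-term totals and 7.08% to 10.1% of the control totals. In both sets the range of the control libraries overlapped that of the short-term libraries and lay apart from that of the long-term libraries. The unigenes were chosen for a difference between the exposed groups, so the separation of long-term from short-term shares follows from that choice. These shares are a description.

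**Figure D3:**
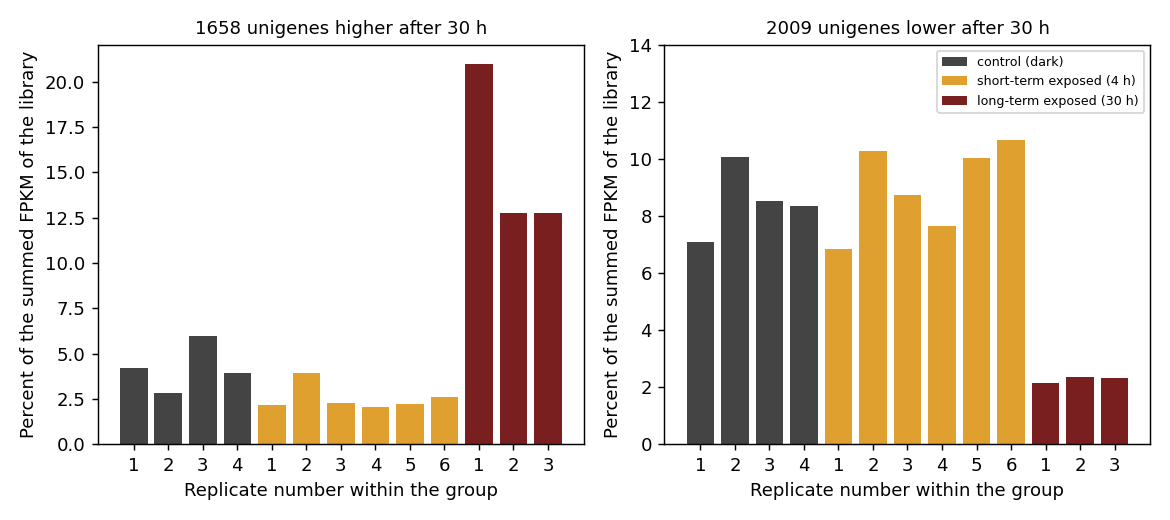
Percent of the summed FPKM of each library (vertical axes, from 0) that was held by the 1658 unigenes that rose (left) and the 2009 that fell (right) after 30 h against 4 h of light, 1 bar per library. The 3 long-term libraries hold 12.8% to 21.0% in the unigenes that rose and at most 2.37% in those that fell. The unigenes were chosen on these libraries.

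Among the largest differences were those of unigenes for which no name was held. Cluster-29057.124223 had 56678, 10165 and 12239 FPKM in the long-term libraries, 89.5 to 1032 (median 192.8) in the short-term and 76.2 to 1467 in the control libraries. Its log2 difference was 6.46 ± 0.90 (SE, adjusted p = 0.00117, limma), and its value in long-term replicate 1 was the highest of the 3. Cluster-29057.101752 had 4107, 2130 and 1459 FPKM in the long-term libraries and 0.06 to 238.2 in the short-term libraries, a log2 difference of 8.11 ± 1.87 (SE, adjusted p = 0.0158, limma). Short-term replicates 3 and 4 were near 0 for it, at 0.06 and 0.15 FPKM, and the control libraries had 132.0 to 433.3. In the other direction, Cluster-29057.100650 had 0.07, 0.10 and 0.39 FPKM after 30 h against 4.80 to 236.0 after 4 h and 122.9 to 331.1 in controls, a log2 difference of -8.13 ± 0.99 (SE, adjusted p = 0.000612, limma). Cluster-29057.101695 was among the most abundant unigenes that fell, at 45.6, 215 and 290.0 FPKM after 30 h and 949.2 to 4595 after 4 h, with a log2 difference of -3.92 ± 0.61 (SE, adjusted p = 0.00211, limma). In these 4 unigenes the long-term and short-term values did not overlap.

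Names were held for 263 of the unigenes tested, 0.677% of them, and 227 of these names say what the protein is. Their origin decides what can be read from them. Names came in part from lists that the study had drawn up from these same libraries for a rise with light or a correlation with melanin genes. Of the 167 unigenes tested from its light-inducible list, 122 rose and 0 fell, and of the 123 from its melanin-correlated list 115 rose and 0 fell. Their direction was fixed by that choice. The part held of the annotation table was not chosen on expression. Of its 114 named and tested unigenes, 4 rose (3.51%) and 8 fell (7.02%), beside 4.27% and 5.17% over all unigenes tested. A rise of a unigene from the study's lists is therefore given below as a description of its size, and the counts of a list are given beside the number of its members from that source.

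The 15 named unigenes with the largest rises included 3 that name patterns placed on a list of liver plasma proteins. Fibrinogen alpha chain, the clotting protein made in liver, had 41.2, 17.6 and 19.1 FPKM in the long-term libraries and 0.07 to 5.00 (median 2.31) in the short-term libraries, with 0.28 to 1.19 in controls. The log2 difference was 4.32 ± 0.98 (SE, adjusted p = 0.0143, limma), with an adjusted p of 0.0728 without long-term replicate 1 and 0.0525 without long-term replicate 3. Short-term replicates 3, 4 and 5 lay within or below the control range, and replicates 1, 2 and 6 at 3.80 to 5.00 above it. A second fibrinogen alpha chain unigene had 20.4, 10.5 and 11.6 FPKM after 30 h and 0.66 to 7.07 after 4 h. Its log2 difference was 2.50 ± 0.62 (SE, adjusted p = 0.0218, limma). Its controls had 0.31 to 0.78 FPKM, and of the short-term libraries only replicate 5, at 0.66, lay within that range. Alpha-2-macroglobulin-like protein 1, of a family of protease-trapping proteins, entered this list through its name, and its tissue was not examined. It had 5.20, 5.29 and 6.01 FPKM after 30 h against 0.10 to 0.75 (median 0.29) after 4 h, a log2 difference of 3.89 ± 0.49 (SE, adjusted p = 0.000647, limma). The control values were 0.14 to 0.48 FPKM, with short-term replicate 1 above them and short-term replicates 4 and 5 below. Albumin 1, the main protein of blood plasma, was the most abundant of all named unigenes called. It had 8060, 9352 and 11982 FPKM in the long-term libraries, 538.3 to 2492 (median 885.5) in the short-term and 852.2 to 2176 in the control libraries, a log2 difference of 3.29 ± 0.50 (SE, adjusted p = 0.00186, limma).

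Of the 17 unigenes placed on this list by name 6 were tested, 4 rose (66.7%) and 0 fell, beside 4.27% and 5.17% over all unigenes tested, with a median log2 difference of 3.13 beside 0.07. The 4 that rose came from the study's own lists, and alpha-2-macroglobulin-like protein 1 was among them. The remaining 2 members, both pentraxins, an acute-phase family, came from the annotation table and did not pass the test. Pentraxin precursor averaged 1674 FPKM after 30 h and 490.1 after 4 h, with a log2 difference of 2.97 ± 1.26 (SE, adjusted p = 0.150, limma). Summed over all 17 unigenes, the list had 10356 to 13397 FPKM in the long-term, 564.6 to 3643 in the short-term and 1191 to 2816 in the control libraries. The lowest sums, 564.6 and 620.8, belonged to short-term replicates 3 and 4. The long-term sums lay above all others, and the control sums lay within the short-term range. Albumin 1 alone held 8060, 9352 and 11982 FPKM of the long-term sums, and 538.3 and 595.7 of those of short-term replicates 3 and 4. In these libraries the sum therefore largely repeats the value of albumin 1. How much liver each pooled sample held was not measured.

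Cytochrome P450 2A6, named after a human enzyme that oxidises drugs and nicotine, fell. It had 0.67, 1.76 and 17.4 FPKM after 30 h, 6.50 to 41.6 (median 25.3) after 4 h and 34.4 to 67.8 in controls, a log2 difference of -2.83 ± 0.78 (SE, adjusted p = 0.0352, limma). Long-term replicate 3, at 17.4, lay within the short-term range, and the adjusted p was 0.187 without long-term replicate 1 and 0.147 without long-term replicate 2. It was also between 0.0516 and 0.0609 without short-term replicate 1, 2, 5 or 6. Cytochrome P450 2C18 had 16.4, 13.2 and 9.54 FPKM after 30 h against 1.63 to 5.95 after 4 h, a log2 difference of 1.92 ± 0.46 (SE, adjusted p = 0.0194, limma), with an adjusted p of 0.0526 to 0.0936 when any 1 long-term library was left out. Cytochrome P450 2G1-like rose by 1.83 ± 0.46 (SE, adjusted p = 0.023, limma), with 0.078 to 0.0963 when any 1 long-term library was left out. Of 27 unigenes with names of drug metabolism 6 were tested, of which 2 rose, both from the study's lists, and 1 fell, from the annotation table, with a median log2 difference of 1.42. These are 33.3% and 16.7% of the 6, beside 4.27% and 5.17% over all unigenes tested.

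Also among the 15, WNT1-inducible-signaling pathway protein 2, a secreted matrix-associated protein of the CCN family, had 8.19, 9.27 and 14.6 FPKM after 30 h and 0.11 to 1.60 (median 0.61) after 4 h. Its log2 difference was 3.92 ± 0.62 (SE, adjusted p = 0.00241, limma). Proteoglycan 4, the lubricating glycoprotein of joints, had 7.69, 9.77 and 11.7 FPKM against 0.03 to 1.25 (median 0.70), a log2 difference of 3.87 ± 0.60 (SE, adjusted p = 0.00208, limma). For both, each long-term value lay above every short-term and control value. Collagen alpha-1(XVI) chain, a minor matrix collagen, had 13.97, 18.6 and 16.8 FPKM against 0.35 to 4.31 (median 1.99), a log2 difference of 3.20 ± 0.63 (SE, adjusted p = 0.00716, limma). Connective tissue growth factor-like, another CCN protein, was not among the 15 and had 37.9, 50.8 and 29.3 FPKM against 5.42 to 16.03 (median 10.0), a log2 difference of 1.89 ± 0.36 (SE, adjusted p = 0.00595, limma). It was the most abundant of these 4, and its short-term values overlapped the controls at 10.03 to 16.05. Newt-specific cysteine-rich growth regulator, a name given in newts, rose by 3.13 ± 0.64 (SE, adjusted p = 0.0086, limma). All 5 kept an adjusted p under 0.05 when any 1 of the 13 libraries was left out. Connective tissue growth factor-like came from the study's growth factor list. The others came from its melanin-correlated list, so their direction was fixed by that choice and their fits are no independent support.

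Guidance proteins of the cell surface gave 2 of the large rises, both from outside the study's lists. Plexin-A4, a semaphorin receptor in axon guidance, had 4.24, 3.28 and 3.66 FPKM after 30 h and 0.07 to 1.73 (median 0.27) after 4 h, with 0.58 to 2.61 in controls. The fitted log2 difference was 3.22 ± 0.64 (SE, adjusted p = 0.00759, limma). Ephrin-A3, a membrane-anchored ligand of Eph receptors, had 11.0, 2.14 and 13.7 FPKM against 0.45 to 0.93 (median 0.675), with a control mean of 2.42, a log2 difference of 3.22 ± 0.54 (SE, adjusted p = 0.00341, limma). Both come from the annotation table, and both had lower means after 4 h than in controls. Long-term replicate 2 lay within the range of the 4 control values for ephrin-A3. Protocadherin-20-like, a cadherin-family adhesion protein, had 1.97, 6.66 and 6.20 FPKM against 0.11 to 0.90 (median 0.27), a log2 difference of 3.55 ± 0.55 (SE, adjusted p = 0.00205, limma). Of 29 unigenes with names of adhesion and matrix, 7 were tested, 3 rose (42.9%), all from the study's lists, and 0 fell, beside 4.27% and 5.17% over all unigenes tested and with a median log2 difference of 0.38. Lactadherin, which bridges cells to dying cells, rose by 1.24 ± 0.32 (SE, adjusted p = 0.025, limma), with an adjusted p of 0.118 without long-term replicate 2 and 0.159 without long-term replicate 3. Desmoglein-2, a desmosomal cadherin of epithelia, averaged 26.57 FPKM after 30 h and 26.12 after 4 h, a log2 difference of 0.18 ± 0.59 (SE, adjusted p = 0.878, limma).

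Names of macrophages and lysosomes were higher together, and every tested member came from the study's lists. Of 24 such unigenes 12 were tested, 10 rose (83.3%) and 0 fell, beside 4.27% and 5.17% over all unigenes tested, with a median log2 difference of 1.65 beside 0.07. Macrophage mannose receptor 1, which takes up mannosylated glycoproteins and microbes, had 57.9, 41.5 and 31.3 FPKM after 30 h and 1.37 to 13.5 (median 4.51) after 4 h. Its log2 difference was 3.07 ± 0.56 (SE, adjusted p = 0.00498, limma). V-set and immunoglobulin domain-containing protein 4, a complement receptor of tissue macrophages, had 26.6, 25.6 and 15.3 FPKM against 1.11 to 6.38 (median 2.25), a log2 difference of 3.09 ± 0.54 (SE, adjusted p = 0.00392, limma). Short-term replicate 1 had the highest short-term value of both. Transmembrane glycoprotein NMB, a protein of macrophages and also of melanosomes, rose by 2.64 ± 0.45 (SE, adjusted p = 0.00345, limma) in the more abundant of its 2 unigenes, from a mean of 8.98 to 57.4 FPKM. The most abundant members were lysosomal proteases. Cathepsin L1-like had 483, 348.45 and 310.6 FPKM against 128.3 to 193.6 (median 164.5), a log2 difference of 1.22 ± 0.26 (SE, adjusted p = 0.0109, limma), with 0.0719 without long-term replicate 1. Cathepsin B had 227.0, 265.6 and 147.6 FPKM against 84.4 to 108.9 (median 97.1), a log2 difference of 1.10 ± 0.27 (SE, adjusted p = 0.0196, limma), with 0.0878 without long-term replicate 1 and 0.118 without long-term replicate 2. Both proteases stayed close to the control range after 4 h, at 135.0 to 163.0 FPKM in controls for cathepsin L1-like and 70.6 to 108.4 for cathepsin B. Summed over all 24 unigenes, the list had 732.8 to 974.0 FPKM in the long-term, 291.2 to 373.7 in the short-term and 281.7 to 336.6 in the control libraries. Cathepsin L1-like and cathepsin B alone held 483 and 227.0 of the 974.0 FPKM in long-term replicate 1, so the sum largely repeats their values. Since every tested member came from the study's lists, the separation of the sums is a description and no independent evidence of a direction.

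Carnitine palmitoyltransferase 1B, the muscle enzyme that admits long-chain fatty acids to mitochondria, was hit by 2 unigenes, and both rose. The more abundant had 17.1, 17.5 and 25.1 FPKM after 30 h and 1.12 to 9.88 (median 3.40) after 4 h, a log2 difference of 2.52 ± 0.51 (SE, adjusted p = 0.00779, limma). The other had 9.88, 9.34 and 16.6 FPKM against 0.26 to 4.17, a log2 difference of 3.33 ± 0.71 (SE, adjusted p = 0.0104, limma). Without long-term replicate 3 their adjusted p was 0.0514 and 0.0622. The 2 share a best-hit name, and without sequences it was not examined whether reads were split between them. Of 22 unigenes with names of lipid metabolism 5 were tested, 4 rose (80%) and 0 fell, beside 4.27% and 5.17% over all unigenes tested, with a median log2 difference of 2.50, and all 5 came from the study's lists. Lysoplasmalogenase-like protein TMEM86A, which cleaves ether lipids, was 1 of the 4, with a mean of 2.43 FPKM after 30 h and 0.13 to 0.61 after 4 h, a log2 difference of 2.50 ± 0.48 (SE, adjusted p = 0.00661, limma).

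Muscle names differed in their calls by source, with no test of that difference. Of 23 such unigenes 7 were tested, 3 rose (42.9%) and 0 fell, beside 4.27% and 5.17% over all unigenes tested, with a median log2 difference of 1.01. The 3 that rose were from the study's lists, namely dystrophin, the link of the muscle cytoskeleton to the matrix, and both unigenes of a muscle-related coiled-coil protein. The more abundant of these 2 had 48.4, 54.4 and 73.4 FPKM after 30 h and 3.57 to 26.1 (median 11.6) after 4 h, a log2 difference of 2.40 ± 0.54 (SE, adjusted p = 0.0143, limma), with 0.0532 without long-term replicate 2 and 0.0775 without long-term replicate 3. The other rose by 1.91 ± 0.45 (SE, adjusted p = 0.0167, limma), with 0.067 and 0.0926 without the same libraries. Dystrophin rose by 1.79 ± 0.51 (SE, adjusted p = 0.0399, limma), with 0.0998 to 0.132 when any 1 long-term library was left out and 0.0507 to 0.0608 without control replicate 1 or 4 or short-term replicate 2 or 3. Members from the annotation table did not pass. Nebulin, the ruler of the thin filament, averaged 13.65 FPKM after 30 h and 6.595 after 4 h, a log2 difference of 1.01 ± 0.38 (SE, adjusted p = 0.106, limma), and the 2 unigenes of xin actin-binding repeat-containing protein 1 had log2 differences of -0.07 and 0.51.

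The study listed unigenes related to growth factors, and whether expression in these libraries entered that choice is not stated, so the list is not independent evidence of a direction. Of its 145 unigenes 22 were tested, 6 rose (27.3%) and 1 fell (4.55%), beside 4.27% and 5.17% over all unigenes tested. The median log2 difference was 1.08 beside 0.07, and 11 of the 22 lay fully above the short-term values, beside 8.19% over all unigenes tested. Hepatocyte growth factor-like protein, the ligand of a macrophage receptor kinase in mammals, had 41.2, 30.3 and 12.9 FPKM after 30 h and 2.34 to 6.62 (median 5.63) after 4 h. The log2 difference was 2.39 ± 0.50 (SE, adjusted p = 0.00948, limma), with 0.0629 without long-term replicate 1 and 0.0515 without long-term replicate 2. The receptor kinase kdr-like, the main receptor of vascular endothelial growth factor on endothelium, had 6.45, 4.16 and 5.09 FPKM against 0.19 to 2.26 (median 0.56), a log2 difference of 2.80 ± 0.58 (SE, adjusted p = 0.00937, limma), with 0.0508 without long-term replicate 1. This receptor is also on the study's light-inducible list, so its direction was fixed by that choice. Ligands of this receptor family, vascular endothelial growth factor D and placenta growth factor-like, also rose, by 1.57 ± 0.43 (SE, adjusted p = 0.034, limma) and 1.63 ± 0.42 (SE, adjusted p = 0.0252, limma). Vascular endothelial growth factor A itself averaged 18.85 FPKM after 30 h and 6.59 after 4 h, a log2 difference of 1.85 ± 0.60 (SE, adjusted p = 0.0646, limma). These 3 ligands were chosen for mention after their values were seen, and were not refitted without single libraries. Members without a call lay in both directions. The more abundant unigene of growth factor receptor-bound protein 7 averaged 6.35 FPKM after 30 h and 15.9 after 4 h. Its log2 difference was -1.23 ± 0.38 (SE, adjusted p = 0.0528, limma). Epidermal growth factor receptor substrate 15-like 1 averaged 0.407 against 0.955 FPKM (adjusted p = 0.128, limma). The log2 difference was -0.64 for growth factor receptor-bound protein 2, and -0.56 and -0.44 for fibroblast growth factor receptor 4. Opioid growth factor receptor had 21.0, 33.7 and 25.4 FPKM after 30 h, 2.80 to 20.5 after 4 h and 11.4 to 21.8 in controls, a log2 difference of 1.79 ± 0.49 (SE, adjusted p = 0.034, limma), with 0.0784 to 0.143 when any 1 long-term library was left out and 0.0501 and 0.0519 without short-term replicate 1 or 6. Here the short-term mean, 9.11, was below the control mean, 17.5.

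Receptor kinases and their signalling partners formed the largest of the lists by name. Of 229 unigenes 14 were above 0 in all libraries, of which 1, kdr-like, came from the study's light lists. Of the 14, 3 rose (21.4%) and 0 fell, beside 4.27% and 5.17% over all unigenes tested, with a median log2 difference of 0.85. The 3 were kdr-like, ephrin-A3 and opioid growth factor receptor, which is no kinase and entered through its name. Its other unigene tested had a log2 difference of 0.95 (adjusted p = 0.112, limma). Summed over all 229, the list had 899.1 to 1103.5 FPKM in the long-term, 106.7 to 259.8 in the short-term and 101.2 to 163.3 in the control libraries, and the groups exposed for 30 h and 4 h did not overlap. How many of the 215 members not tested came from lists the study chose for a rise was not counted. The separation of the sums is therefore a description and no independent evidence of a direction. Short-term replicate 1 had the lowest short-term sum, 106.7, and the fewest of these unigenes above 0. The part of that in the sums was not tested.

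**Figure D4:**
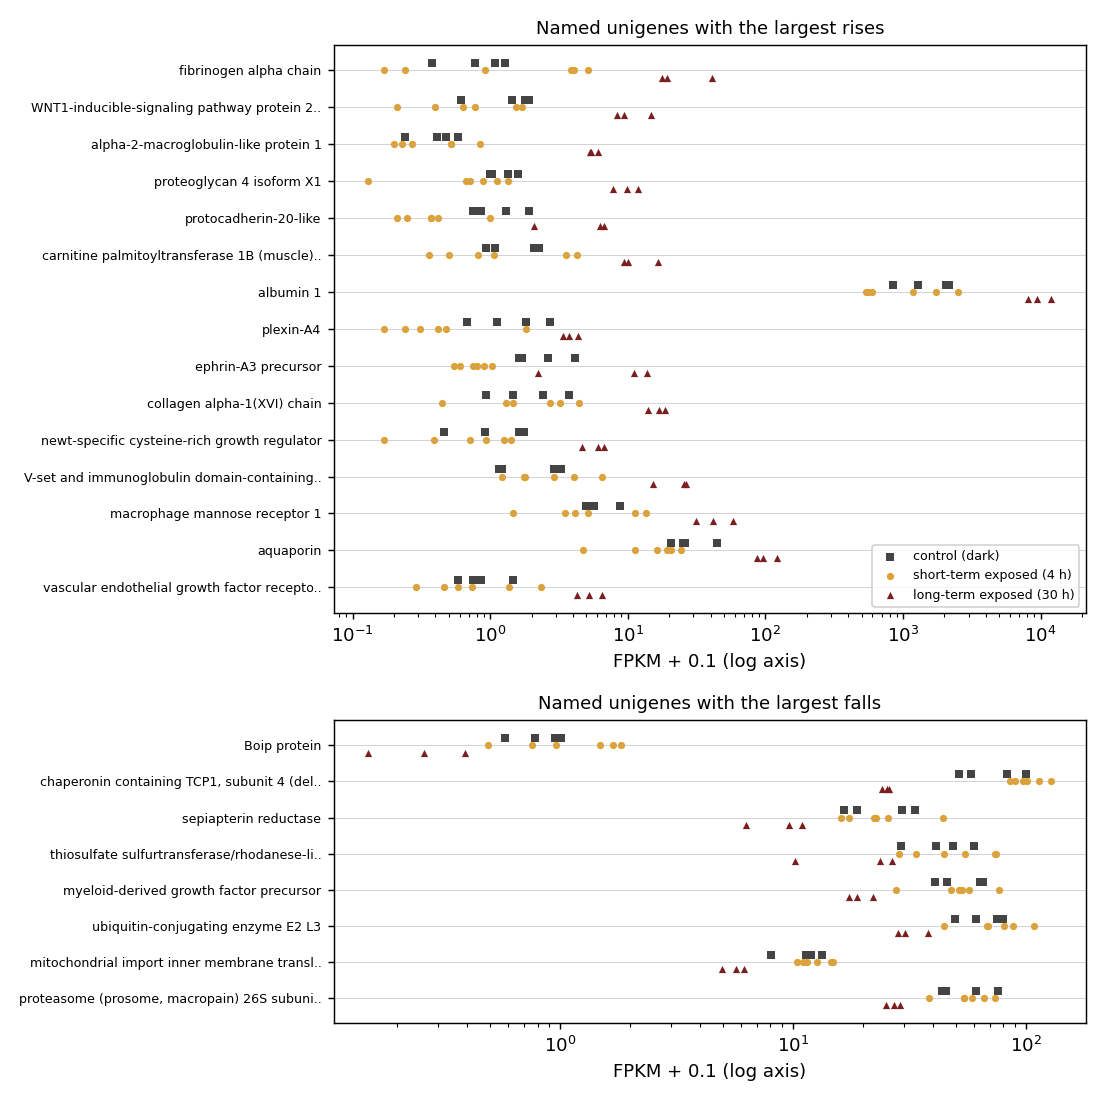
FPKM + 0.1 (log axis) of named unigenes called with values that did not overlap, namely the 15 with the largest rises (upper panel) and all 8 that fell (lower panel). Cytochrome P450 2A6, which fell by -2.83 with overlapping values, is not shown. Each library has 1 symbol, with squares for control, circles for short-term and triangles for long-term exposed libraries. In every line the 3 triangles lie apart from the 6 circles, which was a condition of the choice, and in most lines the squares lie among the circles.

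Of 227 unigenes with an informative name 9 fell (3.96%), beside 5.17% over all unigenes tested, and many of the names come from lists chosen for a rise. The values of 8 of the 9 were separated. They included proteins of folding, ubiquitin-dependent degradation and mitochondrial import. The delta subunit of the chaperonin TCP1, the ring that folds actin and tubulin, had 25.2, 23.9 and 25.65 FPKM after 30 h and 85.0 to 128.5 (median 98.8) after 4 h, with 51.3 to 100.2 in controls. Its log2 difference was -2.02 ± 0.28 (SE, adjusted p = 0.00108, limma), and it kept its call without any 1 library. Of 17 unigenes with names of heat shock proteins and chaperones it was the 1 tested, so nothing is read from it about folding proteins as a set. Of the 17, 3, 17 and 17 were above 0 in long-term replicates 1, 2 and 3, and 1 or 2 in each short-term library. The ribosomal and plastid names given above split long-term replicates 2 and 3 from replicate 1 in the same way, so nothing is read from this about 30 h of light. These differences were not tested. Myeloid-derived growth factor, a secreted protein, had 18.6, 17.2 and 22.0 FPKM against 27.6 to 76.5 (median 52.4), a log2 difference of -1.38 ± 0.32 (SE, adjusted p = 0.0161, limma), with 0.0529 to 0.0762 when any 1 long-term library was left out. It was the 1 member of the growth factor list that fell.

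Both members of the ubiquitin system that fell came from the annotation table. Ubiquitin-conjugating enzyme E2 L3, which hands ubiquitin to several ligases, had 28.1, 37.8 and 30.1 FPKM after 30 h and 44.3 to 108.7 (median 74.3) after 4 h, a log2 difference of -1.21 ± 0.31 (SE, adjusted p = 0.0237, limma). Proteasome 26S subunit, non-ATPase, 13, a part of the cap of the proteasome, had 27.0, 28.7 and 24.9 FPKM against 38.4 to 73.5 (median 56.2), a log2 difference of -1.07 ± 0.29 (SE, adjusted p = 0.0308, limma). Their adjusted p was 0.0577 to 0.102 and 0.0888 to 0.13 when any 1 long-term library was left out, and that of the proteasome subunit 0.051 and 0.0511 without short-term replicate 2 or 3. Of 26 unigenes with such names 7 were tested, 1 rose (14.3%) and 2 fell (28.6%), beside 4.27% and 5.17% over all unigenes tested, with a median log2 difference of -0.05. The 1 that rose, ubiquitin-like with PHD and ring finger domains 2, a chromatin-binding ligase from the study's list, had a log2 difference of 1.72 ± 0.51 (SE, adjusted p = 0.0468, limma) and lost its call in 10 of the 13 fits that left out 1 library, with an adjusted p of up to 0.167. Of 48 ribosomal and 26 energy-metabolism unigenes, none could be tested.

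Tim22, the channel that inserts carrier proteins into the inner mitochondrial membrane, had 6.07, 5.61 and 4.87 FPKM after 30 h against 10.3 to 14.8 (median 12.0) after 4 h, a log2 difference of -1.15 ± 0.29 (SE, adjusted p = 0.0227, limma). A rhodanese-like thiosulfate sulfurtransferase, an enzyme of sulfur transfer, had 26.4, 23.5 and 10.1 FPKM against 28.4 to 74.7 (median 49.5), a log2 difference of -1.38 ± 0.40 (SE, adjusted p = 0.0423, limma). Boip protein, whose role is left out here, had 0.29, 0.16 and 0.05 FPKM against 0.39 to 1.72, a log2 difference of -2.13 ± 0.48 (SE, adjusted p = 0.014, limma). Each of these 3 calls was lost without at least 1 long-term library. The adjusted p reached 0.115 for Tim22, 0.246 for the sulfurtransferase and 0.099 for Boip protein without long-term replicate 3, and was 0.0665 and 0.0803 for Tim22, 0.0637 and 0.0829 for the sulfurtransferase and 0.0286 and 0.0553 for Boip protein without long-term replicates 1 and 2. The sulfurtransferase also had 0.0512 to 0.0762 in 7 fits that left out a control or a short-term library.

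The pigment entries of the study are 31, of which some sum several unigenes of a gene. They were compared between the exposed groups by an exact two-sided permutation test over the 84 ways to split 9 libraries into 6 and 3, whose smallest possible p is 0.0119. Of these entries 6 had a higher and 1 a lower long-term level at an unadjusted p under 0.05. None passed after Benjamini-Hochberg adjustment over the 31 entries, where the lowest adjusted exact permutation p was 0.0923. With so high a smallest p, many entries must reach it together to pass, so this says little about any 1 entry. All 6 that were higher were among the 8 melanin entries.

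Tyrosinase had 1.25, 2.42 and 2.76 FPKM in the long-term libraries, 0.22 to 1.06 (median 0.40) in the short-term and 0.18 to 0.52 in the control libraries. It rose in the fit over all unigenes, with a log2 difference of 1.99 ± 0.45 (SE, adjusted p = 0.0144, limma), and the exact permutation p was 0.0119. Without long-term replicates 2 and 3 its adjusted p was 0.0702 and 0.0841. Dopachrome tautomerase had 1.87, 3.93 and 5.08 FPKM after 30 h and 0.11 to 2.46 (median 0.30) after 4 h. It rose by 2.66 ± 0.73 (SE, adjusted p = 0.034, limma; exact permutation p = 0.0357), although short-term replicate 2, at 2.46, lay above long-term replicate 1. Its adjusted p was 0.0598 to 0.148 when any 1 long-term library was left out, and 0.0524, 0.0502 and 0.0599 without short-term replicate 1, 4 or 6. Tyrosinase-related protein 1, which could not enter the fit, had 7.57, 14.2 and 13.98 FPKM after 30 h against 0.00 to 4.16 (median 2.74) after 4 h and 0.00 to 3.49 in controls, and its exact permutation p was 0.0476. It was listed at 0 in short-term replicate 2 and in control replicate 3, and the exact permutation p was 0.0714 to 0.179 without any 1 long-term library or without short-term replicate 1 or 6.

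Of the melanosome proteins, 3 entries had an unadjusted exact permutation p under 0.05. PMEL, in its amphibian entry, had 8.20, 19.4 and 19.9 FPKM after 30 h and 1.97 to 8.05 (median 3.67) after 4 h, with an exact permutation p of 0.0238. Long-term replicate 1 lay only just above short-term replicate 2, at 8.20 against 8.05. Melanoregulin X3, of a family that shapes the transfer of melanosomes, had 4.23, 8.91 and 7.87 FPKM against 0.26 to 1.08 (median 0.85), and Melanoregulin X1 had 1.57, 1.23 and 2.66 against 0.00 to 0.59, each with an exact permutation p of 0.0119. The control libraries had 0.74 to 3.29 for Melanoregulin X3, and their mean, 2.02, was above the short-term mean of 0.75. MLANA, a melanosome membrane protein, had 3.81, 9.72 and 11.8 FPKM against 2.03 to 4.59 (median 3.41), and did not pass (log2 difference 1.24 ± 0.45 SE, adjusted p = 0.0976, limma). Its long-term replicate 1 lay within the short-term range. Among the melanin entries long-term replicate 1 was the lowest of the 3 long-term libraries in 6 of 8. The entry PMEL X1, whose best hit is a macaque protein, ran the other way, with 1.26, 0.00 and 0.00 FPKM after 30 h, 0.00 to 2.06 after 4 h and 0.00 in every control library.

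Of 12 entries for pteridines and carotenoids 1 was lower and 0 were higher at an unadjusted exact permutation p under 0.05. Sepiapterin reductase, the last enzyme in the making of tetrahydrobiopterin, had 9.49, 10.9 and 6.20 FPKM after 30 h, 15.9 to 43.8 (median 22.4) after 4 h and 16.4 to 33.4 in controls. It fell, with a log2 difference of -1.42 ± 0.37 (SE, adjusted p = 0.0263, limma; exact permutation p = 0.0119), and its adjusted p was 0.0584 to 0.147 when any 1 long-term library was left out. The 3 GTP cyclohydrolase 1 entries had long-term means of 1.57, 0.78 and 2.51 FPKM and short-term means of 5.05, 1.11 and 7.42. On the log2 scale that was tested the differences were -2.02, 0.68 and -0.62, with exact permutation p of 0.262, 0.607 and 0.762, so mean and tested difference had opposite signs for the second entry. Its feedback regulator GCHFR averaged 22.3 against 61.9 FPKM (exact permutation p = 0.0952). Dihydropteridine reductase, which restores the reduced cofactor, was the most abundant pigment entry and had 294.1, 284.5 and 252.9 FPKM against 81.9 to 582.1 (median 294.1), a log2 difference of 0.18 ± 0.57 (SE, adjusted p = 0.876, limma). Short-term replicates 3 and 4 were the lowest for it, at 90.9 and 81.9, as they were for the summed plasma proteins. They were also the lowest for xanthine dehydrogenase 1, the enzyme that makes uric acid, with 0.11 and 0.23 FPKM, against 7.00, 2.49 and 19.7 after 30 h (log2 difference 2.56 ± 0.89 SE, adjusted p = 0.0816, limma). Xanthine dehydrogenase 2 averaged 7.45 FPKM after 30 h and 4.12 after 4 h (log2 difference 1.13 ± 0.81 SE, adjusted p = 0.404, limma). The carotene oxygenases overlapped between the groups, with adjusted p of 0.881 for BCO2-1 and 0.491 for BCO2-3 in the fit and exact permutation p of 0.964 for BCO2-2 and 0.952 for BCMO1.

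**Figure D5:**
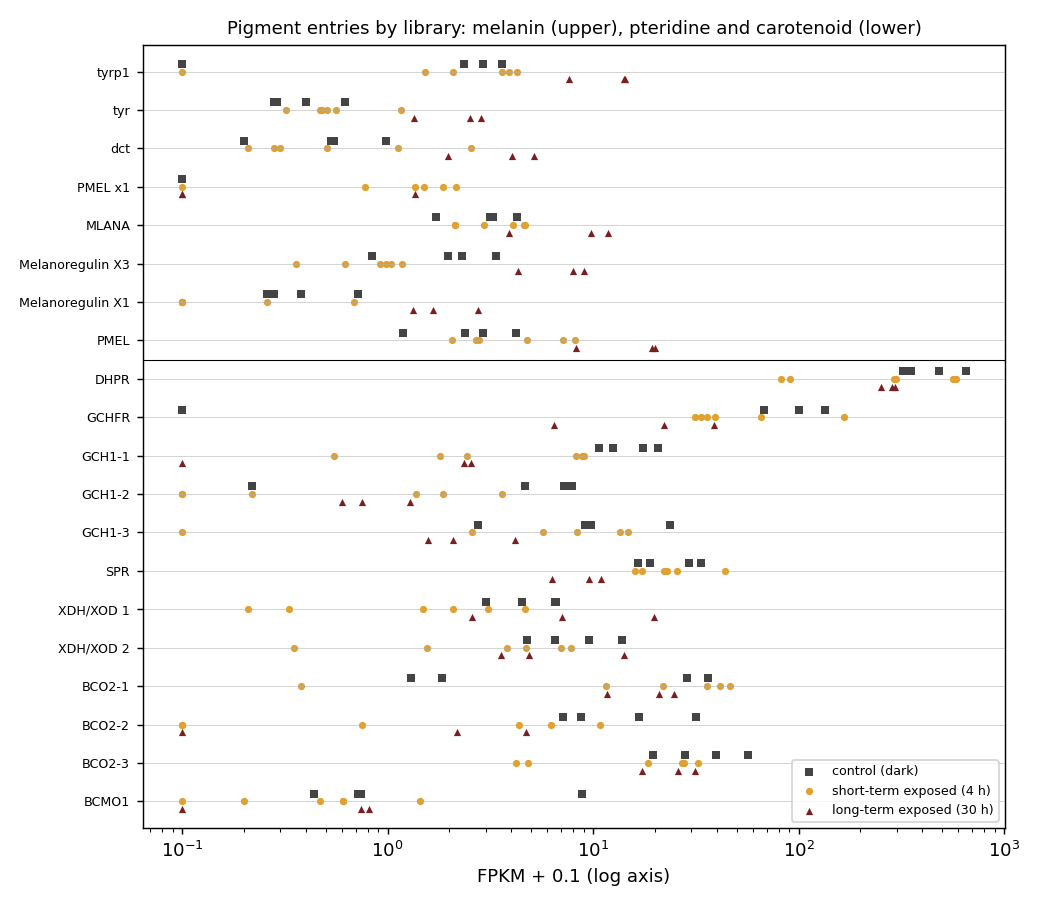
FPKM + 0.1 (log axis) of the 8 melanin entries (upper part) and the 12 pteridine and carotenoid entries (lower part), 1 symbol per library, with squares for control, circles for short-term and triangles for long-term exposed libraries. Symbols at the left edge are values listed as 0. For tyrosinase (tyr) the triangles are at 1.25 to 2.76 FPKM and the circles at 0.22 to 1.06, and for sepiapterin reductase (SPR) the triangles lie at 6.20 to 10.9 FPKM below every circle.

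The 11 entries of hormone signalling and melanosome transport had low levels in all groups. None had an unadjusted exact permutation p under 0.05. The melanocortin receptor MC1R had 0.14, 0.08 and 0.32 FPKM after 30 h and 0.00 to 0.14 after 4 h. Its means were 0.18 and 0.0617 FPKM (exact permutation p = 0.0833). The melanocortin receptors MC4R and MC5R averaged 0.0667 and 0.213 FPKM after 30 h and 0.12 and 0.0883 after 4 h, with exact permutation p of 0.667 and 0.0595. The melanin-concentrating hormone receptor had 0.00, 1.22 and 0.34 FPKM after 30 h (exact permutation p = 0.0833). It was listed at 0 in every short-term library, and had 0.00 to 1.14 FPKM in controls. Agouti signalling peptide, the antagonist of melanocortin receptors, had 0.55, 0.93 and 1.95 FPKM against 0.00 to 1.04 (exact permutation p = 0.107). POMC, the precursor of melanocyte-stimulating hormone, was listed at 0 in 2 long-term and 3 short-term libraries. Of the 5 melanophilin entries, which link melanosomes to myosin, Melanophilin X5 came nearest, with a mean of 1.56 FPKM after 30 h and 0.733 after 4 h (exact permutation p = 0.0714). Melanophilin X1, X2 and X4 had exact permutation p of 0.262, 0.452 and 0.762, and Melanophilin X3 was listed at 0 in every long-term library.

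Names tied to light and DNA damage were few. Of 15 such unigenes 5 were tested, 2 rose (40%) and 0 fell, beside 4.27% and 5.17% over all unigenes tested, with a median log2 difference of 0.60, and both that rose came from the study's lists. A deoxyribodipyrimidine photo-lyase-like unigene, of the enzymes that repair ultraviolet damage with the energy of light, had 6.18, 12.4 and 10.1 FPKM after 30 h and 1.95 to 4.78 (median 3.79) after 4 h. The fitted log2 difference was 1.42 ± 0.38 (SE, adjusted p = 0.0321, limma), with 0.158 and 0.135 without long-term replicates 2 and 3 and 0.052 without short-term replicate 6. In controls it had 2.93 to 4.52 FPKM, so the short-term values covered the control range. Tumor protein p53-inducible nuclear protein 2, which acts in autophagy, rose by 2.20 ± 0.51 (SE, adjusted p = 0.0167, limma), from a mean of 1.97 to 8.91 FPKM, with 0.0759 and 0.0938 without long-term replicates 2 and 3. This unigene entered through its name, so the share of calls is not one of light and DNA damage genes alone.

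The other named unigenes of high abundance that rose were aquaporin, a water channel, with 87.5, 96.8 and 120.7 FPKM against 4.60 to 24.3 (median 17.8) and 20.7 to 44.5 in controls, a log2 difference of 2.82 ± 0.45 (SE, adjusted p = 0.00243, limma). Thymosin beta-15A, which binds actin monomers, had 237.5, 686.5 and 653.2 FPKM against 52.3 to 216.6 (median 71.8), a log2 difference of 2.35 ± 0.51 (SE, adjusted p = 0.0116, limma), with 0.0677 and 0.0708 without long-term replicates 2 and 3. A nuclear transcriptional regulator 1-like unigene rose by 1.44 ± 0.31 (SE, adjusted p = 0.0114, limma), from a mean of 53.5 to 141.0 FPKM, with 0.0515 and 0.0574 without the same libraries. For aquaporin the call held without any 1 library. Aquaporin, thymosin beta-15A and the regulator came from the study's melanin-correlated list, so their direction was fixed by that choice.

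Immune, RNA-processing and transposon names gave 1, 2 and 3 calls, all rises and all from the study's lists. The 7 unigenes tested of 36 on the immune list include MLANA, the melanosome protein given above, which entered through its name. The share of calls is therefore not one of immune genes alone. T-cell surface glycoprotein CD4 had 15.6, 12.9 and 14.4 FPKM against 2.98 to 8.70 (median 5.88), a log2 difference of 1.40 ± 0.40 (SE, adjusted p = 0.0399, limma), and was the 1 call (14.3%, beside 4.27% higher over all unigenes tested) among these 7. Its adjusted p was 0.108 to 0.138 when any 1 long-term library was left out and 0.052 to 0.0701 without control replicate 1 or 3 or short-term replicate 2, 4 or 6. Suppressor of cytokine signaling 3, a feedback inhibitor of cytokine receptors from the annotation table, averaged 14.65 FPKM after 30 h, 37.3 after 4 h and 11.6 in controls, and did not pass (log2 difference -1.16 ± 0.49 SE, adjusted p = 0.150, limma). Of 33 RNA-processing unigenes 5 were tested, 2 rose (40%, beside 4.27% over all unigenes tested) and 0 fell, with a median log2 difference of 1.35. They were heterogeneous nuclear ribonucleoprotein D-like by 2.37 ± 0.54 (SE, adjusted p = 0.0148, limma) and the helicase DDX6 by 1.83 ± 0.50 (SE, adjusted p = 0.034, limma). The first had 0.0909 without long-term replicate 3, and DDX6 0.0738 to 0.144 when any 1 long-term library was left out and 0.0529 and 0.0616 without short-term replicate 2 or 6. Of 33 transposon unigenes 6 were tested, 3 rose (50%) and 0 fell, beside 4.27% and 5.17% over all unigenes tested, with a median log2 difference of 1.71 beside 0.07. A Tf2 retrotransposable element had 0.59, 1.58 and 1.46 FPKM against 0.02 to 0.12, a log2 difference of 2.80 ± 0.44 (SE, adjusted p = 0.0024, limma). A gypsy integrase and an integrase core domain protein rose by 1.81 ± 0.44 (SE, adjusted p = 0.0191, limma) and 1.61 ± 0.36 (SE, adjusted p = 0.0127, limma), with 0.0511 to 0.0943 and up to 0.0653 when a long-term library was left out.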

How the data were processed

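Paired-end RNA-seq was made from pooled tissue of 13 single tadpoles. The authors removed low-quality and adapter reads, assembled all libraries together with Trinity and deposited FPKM per unigene. Aligner and counting tool: not given in the sources used here. The labels and the paper's methods name different HiSeq instruments. FPKM is not a count, so no count test was run. All 13 columns were mapped by name.

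Values were taken to log2(FPKM + 0.1). For the 38864 unigenes above 0 in all 13 libraries, a linear model with 3 group means and a trend of variance on mean level was fitted (R 4.3.3, limma 3.58.1), and long-term minus short-term exposed was tested with Benjamini-Hochberg adjustment over all 38864. Fold values are on this scale and understate changes of low unigenes. The 31 pigment entries, with unigenes of an entry summed, had exact permutation tests. The code was tested on simulated data. Replicates are separate animals by the methods, caught in 1 pool at 1 time. Counting error was not computed, since FPKM gives no read totals and none were used here.

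Names were taken from the study's supplementary tables, of which the annotation table was held in part. Unigenes named were the 15 with the largest rise and fall among called unigenes with informative names and values that did not overlap, the 5 most abundant called in each direction, every pigment entry, and up to 3 called members of each of 17 lists made by patterns on names and of the growth factor list. A pattern that had put carnitine palmitoyltransferase among the lysosomal names was corrected after the values were seen. The members and lists were chosen with earlier results of these data known. Alternatives were pseudocounts of 1 and 0.01, 4 other filters, median-of-ratios scaling, the 9 exposed libraries alone, array weights, a replicate block, Student tests on untransformed FPKM, and leaving out each library or both first exposed libraries. Unigene sequences were not used here. Software was Python 3.11.15, pandas 2.3.3, numpy 2.4.6, SciPy 1.17.1 and matplotlib 3.10.9.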

Additional observations from a re-analysis of the deposited data

Results flagged for a closer look

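In groups of 4 and 6 libraries, 16 single values of 160 groups lay far from the rest of their group by Dixon's test at 95%, and chance alone flags about 1 group in 20. Among the named unigenes these were proteoglycan 4 in short-term replicate 5 at 0.03 FPKM, the nuclear transcriptional regulator 1-like unigene in control replicate 3 at 35.52 and in short-term replicate 1 at 30.09, TMEM86A in control replicate 3 at 0.1, and tumor protein p53-inducible nuclear protein 2 in short-term replicate 5 at 0.6.

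Among the pigment entries the values were 0.0 FPKM for tyrosinase-related protein 1 in control replicate 3 and short-term replicate 2, 0.0 for PMEL X1 in short-term replicate 1, 0.0 for GCHFR and 0.12 for GCH1-2 in control replicate 4, 0.0 for GCH1-3 in short-term replicate 4, 0.28 for BCO2-1 in short-term replicate 1, 0.02 for the melanocortin receptor MC1R in control replicate 3, 1.91 for POMC in short-term replicate 2, and 1.2 and 0.18 for Melanophilin X3 in control replicate 1 and short-term replicate 6. The long-term group has 3 libraries and was not tested in this way.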

How the results depend on the processing

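The counts depended on settings that change the number of libraries, the unigenes tested or the estimate of spread, while 0 unigenes were called in opposite directions under any setting. The pairs that follow are rises and falls, over all classes and then under 1, from 1 to 10, from 10 to 100 and at 100 FPKM or more. The 9 exposed libraries alone gave 873 and 1236, then 235 and 34, 464 and 500, 146 and 606, 28 and 96. Array weights gave 3040 and 3810, then 761 and 293, 1725 and 1876, 475 and 1451, 79 and 190. Leaving out both first exposed libraries gave 622 and 928, then 160 and 26, 332 and 366, 111 and 461, 19 and 75. Median-of-ratios scaling gave 2476 and 2935 (under 1 FPKM 662 and 172, from 1 to 10 FPKM 1445 and 1492), and a pseudocount of 1 gave 2337 and 1939 (under 1 FPKM 664 and 44), and of 0.01 1344 and 1977 (under 1 FPKM 283 and 78). Testing all 230961 unigenes above 0 gave 3297 and 1098, then 2295 and 80, 835 and 449, 138 and 462, 29 and 107. A filter of 0.3 FPKM in 3 libraries (147192 unigenes) gave 3080 and 1409, then 1905 and 115, 979 and 601, 164 and 574, 32 and 119. A filter of 1 FPKM in all 13 (15041 unigenes) gave 679 and 1853, then 0 and 0, 319 and 653, 301 and 1040, 59 and 160. Student tests on untransformed FPKM gave 1190 and 422, then 303 and 6, 701 and 130, 166 and 262, 20 and 24. For these, apart from the number of libraries or unigenes entering, the cause was not tested.

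Leaving out 1 library gave 441 to 1671 rises and 682 to 2623 falls. By class these were 92 to 395 and 13 to 152 under 1 FPKM, 237 to 936 and 255 to 1305 from 1 to 10, 87 to 308 and 342 to 1065 from 10 to 100, and 17 to 58 and 64 to 170 at 100 FPKM or more. Pigment entries with an unadjusted exact permutation p under 0.05 numbered 4 to 7 higher and 1 lower.

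The replicate number as a block gave 486 and 709, then 72 and 24, 281 and 309, 112 and 317, 21 and 59. Same-numbered long-term and short-term libraries had correlations of their deviations of 0.123, -0.075 and 0.065, so the numbers do not pair them. Of 51 named unigenes called, 17 kept the call without any 1 library and 34 lost it in at least 1 such fit. Over 1140 refits of named unigenes, 949 kept their side of the threshold, 188 lost the call, the rest gained a call and 0 calls reversed. Unigenes without a call could change sign. The log2 difference ranged from -0.14 to 0.43 for dihydropteridine reductase and from -0.62 to 1.17 for BCO2-1. Read totals were not used here, so no limit from depth was computed for single unigenes.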
